A study of Mus musculus with 4 samples.

Results

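The FGF ligands of the pharyngeal region were described here as a set of 4 genes, Fgf3, Fgf8, Fgf10 and Fgf15, in single cells of the Tbx1Cre lineage of mouse embryos. They were chosen by name and matched by Ensembl identifier, and all 4 members were found with the same identifier and symbol in the 4 gene tables, which shared 27514 genes. The libraries counted transcripts at their 3′ ends with unique molecular identifiers (UMIs), 1 UMI standing for 1 captured molecule, and there was 1 library in each of 4 groups. The control (Ctrl) embryos were Tbx1Cre/+;Rosa26-GFPflox/+, and the conditional knockout (cKO) embryos were Tbx1Cre/flox;Rosa26-GFPflox/+, both on a Swiss Webster background and both taken at E8.5 and E9.5. Cre sits in the Tbx1 locus, so that the controls also carry an inactivated Tbx1 copy, and both genotypes mark cells with a history of Tbx1 expression by GFP. GFP-positive, DAPI-negative cells of pooled embryos were sorted from the upper part of the body at E8.5 and from the pharyngeal apparatus and heart at E9.5. The study's summary of samples lists the E9.5 tissue as taken with the back. Genotype and library, and likewise stage, dissection and library, cannot be told apart, and no value below has a replicate.

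Fibroblast growth factors are secreted proteins that bind receptor tyrosine kinases at the cell surface, signal mainly through the Ras and MAP kinase pathway and switch on their own feedback inhibitors of the Spry, Spred and Dusp families and the Etv transcription factors. In the pharyngeal region Fgf8 is known as a ligand of the endoderm, ectoderm and second heart field, and Fgf10 as a marker of the anterior second heart field and pharyngeal core mesoderm. Fgf3 is known from the pharyngeal endoderm and the hindbrain. Fgf15 is an endocrine-type FGF, the mouse counterpart of human FGF19. Fgf3 and Fgf15 lie close together in the genome. In the GRCm38 build Fgf3 (ENSMUSG00000031074) lies on chromosome 7 from 144838612 to 144843348 and Fgf15 (ENSMUSG00000031073) from 144896532 to 144900953, with 53184 bases between them and Fgf4 (ENSMUSG00000050917) in that interval, from 144861386 to 144865245. Fgf8 (ENSMUSG00000025219) lies on chromosome 19 from 45736491 to 45742941, and Fgf10 (ENSMUSG00000021732) on chromosome 13 from 118714699 to 118792573.

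Promoter windows of 250 bases before the annotated start, from RefSeq on GRCm38.p6, were matched for 2 of the 4 members. They are shown because Tbx1 is a T-box factor and because the ETS-type factors Etv4 and Etv5 act downstream of FGF receptors. Capitals mark matches to the ETS core GGAA on either strand (TTCC on the strand shown). The windows are chr7:144838362-144838611 for Fgf3 and chr13:118714449-118714698 for Fgf10, both on the plus strand.
Fgf3: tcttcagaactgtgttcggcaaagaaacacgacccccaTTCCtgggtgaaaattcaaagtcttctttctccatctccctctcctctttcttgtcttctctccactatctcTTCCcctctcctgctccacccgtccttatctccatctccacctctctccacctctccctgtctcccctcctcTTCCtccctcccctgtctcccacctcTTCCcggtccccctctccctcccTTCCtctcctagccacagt
Fgf10: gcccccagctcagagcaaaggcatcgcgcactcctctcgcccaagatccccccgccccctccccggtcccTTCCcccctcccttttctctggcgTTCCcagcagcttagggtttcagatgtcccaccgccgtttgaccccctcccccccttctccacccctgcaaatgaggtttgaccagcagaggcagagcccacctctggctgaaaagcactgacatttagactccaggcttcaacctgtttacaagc
The ETS core had 5 matches in the Fgf3 window and 2 in the Fgf10 window, and 93.4% of 32851 promoter windows of this length hold it. The T-box letters TCACACC, found in 3.33% of windows on either strand, and the shorter GTGTGA, found in 12.3%, had 0 matches in both windows. A match is a run of letters and not a binding site.

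The libraries held 1434 to 6266 cells and 25391654 to 104773150 UMIs, and the median cell had 15910.5 to 23984 UMIs. Between 2 and 55 barcodes were shared by a pair of libraries, at most 1.01% of the smaller. Tbx1, the targeted gene, was at 86.4 UPM (UMIs per 1000000 UMIs of the same cells) in Ctrl and 118 in cKO at E8.5, and at 103 in Ctrl and 134 in cKO at E9.5. Tbx1 was thus not lower in the library labelled cKO at either stage, with log2 ratios of 0.45 and 0.38. A 3′ count cannot show a recombined allele, so the labels were not checked by it, and cKO means the library labelled cKO throughout. The gene table of cKO E9.5 was not that of the remaining libraries, so all levels were taken over the shared genes. The summed level of 4 globin genes, markers of blood, was between 0.155 and 67.6 UPM, highest in Ctrl E9.5, and its part in the results was not tested. Each level is a sum of UMIs over cells in UPM, with exact 95% Poisson intervals. Each ratio is a log2 ratio of 2 such levels, with exact conditional binomial intervals. Such intervals speak of counting error alone, not of how embryos or preparations vary. With 1 library a group there is no test, and a gene was called only by size, at 2-fold or more with at least 20 UMIs over both sums.

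Cells were placed in 15 groups by gates of marker genes, each named for its marker list. Epithelial cells had at least 3 of Epcam, Cdh1, Cldn6, Cldn7 and Wfdc2, and were called endoderm with at least 2 of Pax1, Pax9, Foxa1, Foxa2, Shh and Nkx2-1. Most of the remainder formed the "other epithelium" group. The mesoderm gates included branchiomeric muscle (BrM, at least 3 of Tcf21, Msc, Lhx2, Hlx, Myf5 and Col13a1). The anterior second heart field or somatic mesoderm gate (aSHF/SoM) needed at least 4 of Hand2, Mef2c, Nkx2-5, Gata6, Gata5, Bmp4 and Tnni1. The posterior second heart field gate (pSHF) needed at least 3 of Osr1, Foxf1, Tbx5, Wnt2 and Aldh1a2. The multilineage progenitor gate (MLP) needed Arg1 together with Rdh10, Vamp8 or both. The remaining mesoderm gates were somitic, Zic1/Msx1 and mesenchyme. Endothelial cells, cardiomyocytes, neuroblasts, neural tube, neural crest and otic cells had gates of their own. Markers left out of the gates were highest in their own gate for the endoderm (Nkx2-3, Vgll2 and Nkx2-6), endothelial, cardiomyocyte, neuroblast, neural tube, otic and Zic1/Msx1 cells, and in part for BrM, mesenchyme, neural crest and somitic cells. For the MLP, aSHF/SoM, pSHF and other epithelium gates they were highest elsewhere, so these 4 names stand only for the genes that gated them.

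**Figure D1:**
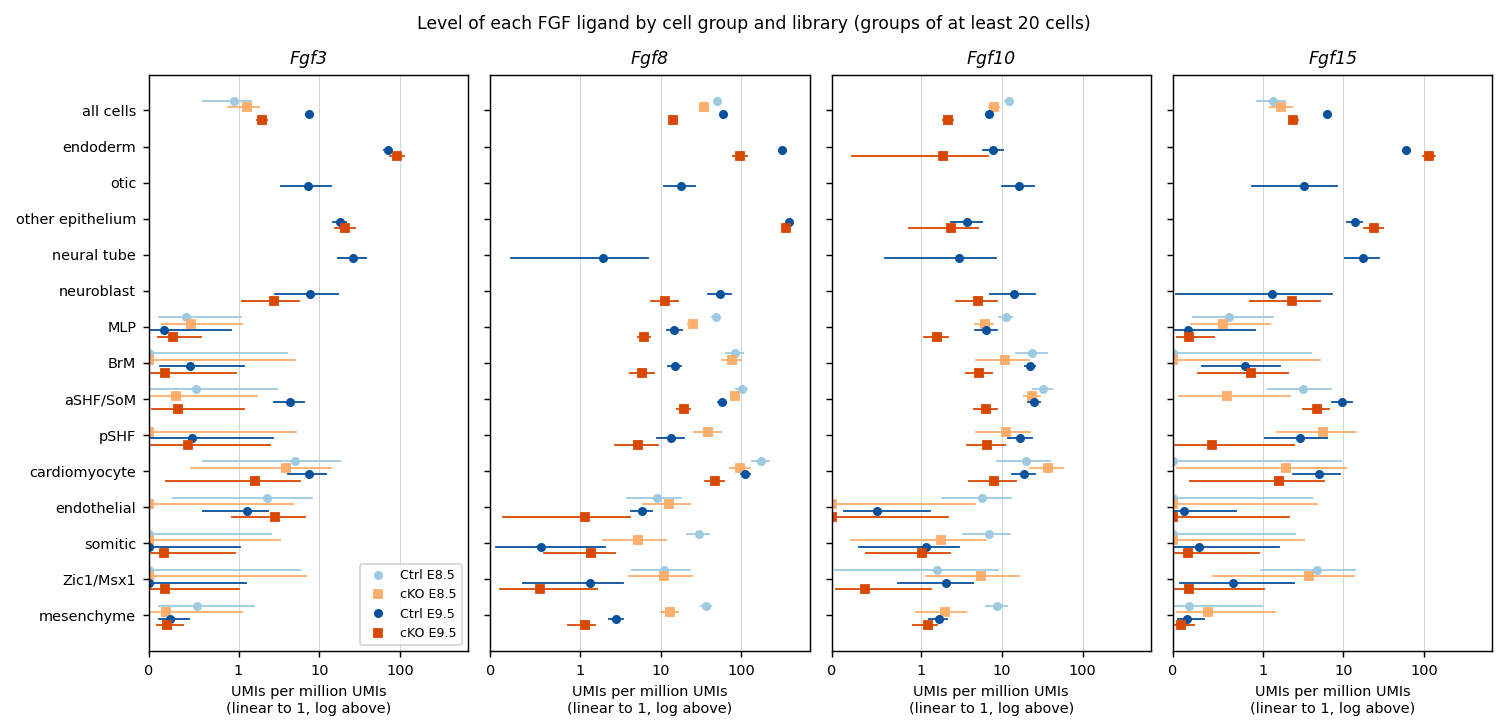
Level of each ligand (x axis, UPM, linear to 1 and log above) in all cells and in each marker-gated group of at least 20 cells (y axis), with 1 point per library and bars for 95% Poisson intervals. In Ctrl E9.5, Fgf8 was highest in endoderm and other epithelium (321 and 386 UPM). Fgf10 had its highest values of that library in BrM and aSHF/SoM (22.3 and 25.0 UPM), with intervals that overlapped those of other groups.

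In all cells of the E9.5 libraries every one of the 4 ligands was lower in cKO. Fgf8 was at 49.7 UPM in Ctrl and 34.7 in cKO at E8.5, and at 58.5 in Ctrl and 14.3 in cKO at E9.5, where the log2 ratio of cKO to Ctrl was -2.03 (interval -2.11 to -1.95). Fgf3 was at 0.951, 1.28, 7.39 and 1.95 UPM in the same order of libraries, with a ratio of -1.92 at E9.5 (-2.16 to -1.70). Fgf10 was at 12.1, 7.89, 6.99 and 2.14 UPM, with a ratio of -1.71 (-1.93 to -1.49). Fgf15 was at 1.35, 1.71, 6.34 and 2.40 UPM, with a ratio of -1.40 (-1.62 to -1.19). All 4 members passed 2-fold lower at E9.5, against a background of 9.80% of all genes tested. The median log2 ratio of all genes was -0.26, and relative to it the 4 ratios were -1.67 for Fgf3, -1.77 for Fgf8, -1.45 for Fgf10 and -1.15 for Fgf15. At E8.5 none of the 4 members passed 2-fold, with a background of 1.30% of all genes lower and 2.92% higher. The ratios were -0.52 for Fgf8 (-0.65 to -0.40), -0.62 for Fgf10 (-0.88 to -0.35), 0.43 for Fgf3 and 0.34 for Fgf15, the last 2 with intervals that include 0.

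The cells that held these transcripts differed in number between the E9.5 libraries. Epithelial cells of all kinds were 717 of 5453 cells in Ctrl (13.1%, exact Clopper-Pearson interval 12.3 to 14.1) and 191 of 6266 in cKO (3.05%, 2.64 to 3.50). Endoderm-gated cells were 324 (5.94%) and 50 (0.798%), and other epithelium 337 (6.18%) and 134 (2.14%). In the endoderm cells, the gating markers were at 403 UPM in Ctrl and 395 in cKO for Epcam, 393 and 329 for Cldn6 and 143 and 305 for Wfdc2. The keratin genes Krt8 (196 and 105) and Krt18 (442 and 228) and the claudin gene Cldn4 (112 and 59.6), epithelial genes not used for the gate, were lower in cKO. The endoderm gate genes differed in both directions, with Pax1 at 221 and 140 UPM, Pax9 at 152 and 78.9, Foxa1 at 25.6 and 46.8 and Foxa2 at 12.6 and 27.5, so that the count over all epithelium is the less dependent on the split. MLP-gated cells were 360 (6.60%) in Ctrl and 1273 (20.3%) in cKO. The GFP sort and the dissection can set such shares, and their part was not tested.

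To separate the level in each group from the number of its cells, the cKO level of each gate was weighted by the UMI shares of the gates in Ctrl. The log2 ratio at E9.5 became 0.22 for Fgf3 and 0.69 for Fgf15, both with the direction turned, while Fgf8 was at -0.77 and Fgf10 at -1.53. With Ctrl levels in the cKO composition, the ratio was -1.83 for Fgf3, -1.62 for Fgf15, -1.22 for Fgf8 and -0.089 for Fgf10. The weighting changes the shares of every gate at once, MLP included, and the cKO endoderm levels it uses rest on 50 cells, of which 5 held 54.5% of the Fgf3 UMIs. At E8.5 the ratio with Ctrl composition was -0.68 for Fgf8 and -0.85 for Fgf10.

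**Figure D2:**
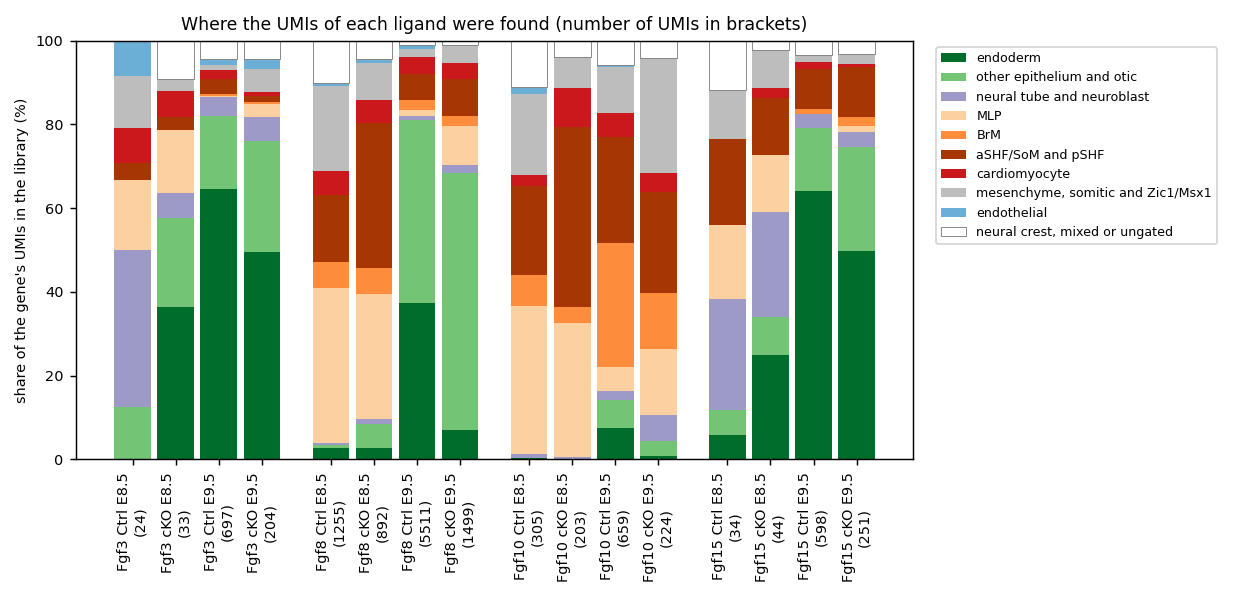
Share of the UMIs of each ligand (y axis, percent of its UMIs in the library) found in each group of cells, with 1 stacked bar per library and the number of UMIs in brackets. The endoderm held 37.4% of the Fgf8 UMIs of Ctrl E9.5 and 7.07% of those of cKO E9.5.

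Fgf8 in Ctrl E9.5 was highest in other epithelium, at 386 UPM (2390 UMIs, 371 to 402), then in endoderm at 321 UPM (308 to 336), in cardiomyocytes at 112 (97.7 to 127), in aSHF/SoM at 57.8 (51.5 to 64.7) and in neuroblasts at 54.3 (39.1 to 73.4). The first 4 of these had intervals that did not overlap, while neuroblasts overlapped aSHF/SoM, with 95.2% of their 42 UMIs in 5 cells. The otic, BrM, MLP and pSHF groups followed, at 17.8, 14.9, 14.8 and 13.5 UPM, which could not be ordered within their intervals. Endothelial cells, which are not known as an Fgf8 source, were at 5.79 UPM.

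Within the epithelium Fgf8 parted. In the endoderm at E8.5 it was at 256 UPM in Ctrl (34 UMIs in 7 cells) and 190 in cKO (24 UMIs in 5 cells), and at E9.5 at 321 in Ctrl (2059 UMIs) and 97.3 in cKO (106 UMIs), a log2 ratio of -1.72 (-2.02 to -1.44). In other epithelium it was at 67.1 UPM in Ctrl (10 UMIs) and 262 in cKO (51 UMIs) at E8.5, on 10 and 8 cells, and at 386 and 359 at E9.5, a ratio of -0.10 (-0.22 to 0.0056) that was at 0.042 with TMM factors and 0.10 relative to the median gene. In other epithelial cells with a UMI of Tfap2a, a gene of the surface ectoderm, Fgf8 was at 453 UPM in Ctrl and 437 in cKO, and in those without one at 300 and 226. At E8.5 Fgf8 in other epithelium was past 2-fold higher in cKO (1.97, 0.97 to 3.11), where 4.78% of all genes were higher by 2-fold. At E9.5 the endoderm was the only one of the 2 large epithelial groups where Fgf8 was past 2-fold, and the difference between them was not tested. Endoderm cells of cKO were few, and the 5 with most Fgf8 UMIs held 53.8% of them. A count of 5 is a larger share of the 50 cKO than of the 324 Ctrl endoderm cells. Without 5 such cells in each library the ratio was -2.52. With all epithelial cells as 1 group it was -0.25 (323 to 272 UPM). Of all genes tested 9.92% were lower by 2-fold in endoderm, where 2 of the 4 members passed, Fgf8 and Fgf10 (50 UMIs in Ctrl and 2 in cKO, -2.09, -5.17 to -0.16), and 6.44% in other epithelium, where no member did.

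In the mesoderm gates Fgf8 was lower in cKO E9.5 in each of the BrM, aSHF/SoM, pSHF, MLP and cardiomyocyte groups. BrM cells were at 82.6 UPM in Ctrl and 75.6 in cKO at E8.5 and at 14.9 in Ctrl and 5.95 in cKO at E9.5, a ratio of -1.32 at E9.5 (-1.91 to -0.77). The aSHF/SoM cells were at 100, 84.2, 57.8 and 19.3 UPM in that order, a ratio of -1.58 (-1.90 to -1.27), and MLP cells at 48.0, 24.8, 14.8 and 6.25 UPM, a ratio of -1.24 (-1.64 to -0.85). The Fgf8 ratio at E9.5 was -1.35 in pSHF, -1.26 in cardiomyocytes (112 and 46.7 UPM) and -1.27 in mesenchyme (2.81 and 1.17 UPM). Endothelial cells moved the same way, from 5.79 UPM in Ctrl (46 UMIs) to 1.15 in cKO (2 UMIs), a ratio of -2.34 (-5.42 to -0.40). They are not known to make Fgf8, and the mesenchyme level lay below theirs in Ctrl but not in cKO. The part of free RNA in the low levels was not tested. The 5 epithelial markers summed to 5.32 to 14.8 UPM in these gates in Ctrl E9.5, with 4 or 5 of 5 detected, and to 9.10 to 44.9 in cKO E9.5, with 3 to 5 of 5 detected, against 1143 and 1213 in endoderm. They were higher in cKO in each of these mesoderm gates (10.0 and 19.6 in aSHF/SoM, with Cdh1 at 0 in both). In endothelial cells they summed to 7.56 UPM in Ctrl, with 5 of 5 detected, and 5.74 in cKO, with 2 of 5 detected (Cdh1, Cldn6 and Cldn7 at 0), and their part in the Fgf8 values was not tested. At E8.5 the Fgf8 ratio was -0.95 in MLP (-1.17 to -0.73), -1.50 in mesenchyme, -0.25 in aSHF/SoM and -0.13 in BrM. With the mesoderm gates applied in reverse order the MLP value was -0.31, so it depends on which gate takes a cell first.

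Of the Fgf10 UMIs of Ctrl E9.5, 55.4% were in MLP, BrM and aSHF/SoM together (29.4% in BrM) and 14.1% in all epithelium. In Ctrl E9.5 it stood at 25.0 UPM in aSHF/SoM (132 UMIs, 20.9 to 29.7), 22.3 in BrM (194 UMIs, 19.3 to 25.7), 18.7 in cardiomyocytes (13.2 to 25.7), 16.9 in pSHF (11.7 to 23.5), 16.2 in otic cells (9.88 to 25.0) and 14.2 in neuroblasts (7.10 to 25.4), 6 groups whose intervals overlapped. Endoderm at 7.81, MLP at 6.41 and other epithelium at 3.71 UPM lay below BrM, and endothelial cells were at 0.504.

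Fgf10 was lower in cKO E9.5 by 2-fold or more in BrM, aSHF/SoM, MLP, pSHF and cardiomyocytes. BrM cells were at 23.6 UPM in Ctrl (22 UMIs) and 11.0 in cKO (8 UMIs) at E8.5, a ratio of -1.10 (-2.48 to 0.12), and at 22.3 in Ctrl and 5.25 in cKO (30 UMIs) at E9.5, a ratio of -2.09 (-2.70 to -1.53). The aSHF/SoM cells were at 31.9, 23.7, 25.0 and 6.28 UPM in that order, a ratio of -1.99 at E9.5 (-2.55 to -1.47). MLP cells were at 11.2, 6.07, 6.41 and 1.56 UPM, a ratio of -2.04 (-2.74 to -1.34). In aSHF/SoM the low library was cKO E9.5, and the remaining ones lay between 23.7 and 31.9 UPM. The Fgf10 ratio was -1.35 in pSHF and -1.22 in cardiomyocytes, groups with 6.06% and 7.68% of all genes lower by 2-fold, and -0.44 in mesenchyme (-0.99 to 0.11). Fgf8 and Fgf10 both passed 2-fold in BrM, aSHF/SoM and MLP, where 8.05%, 5.14% and 5.64% of all genes were lower by 2-fold. In aSHF/SoM, Fgf3 (23 UMIs in Ctrl, 2 in cKO, ratio -3.76, interval -6.89 to -1.74) and Fgf15 (-1.05) passed too. Fgf3 met the minimum of UMIs through its Ctrl count. Relative to the median log2 ratio of all genes in aSHF/SoM (-0.20), Fgf15 was within 2-fold, while Fgf3, Fgf8 and Fgf10 stayed past it.

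**Figure D3:**
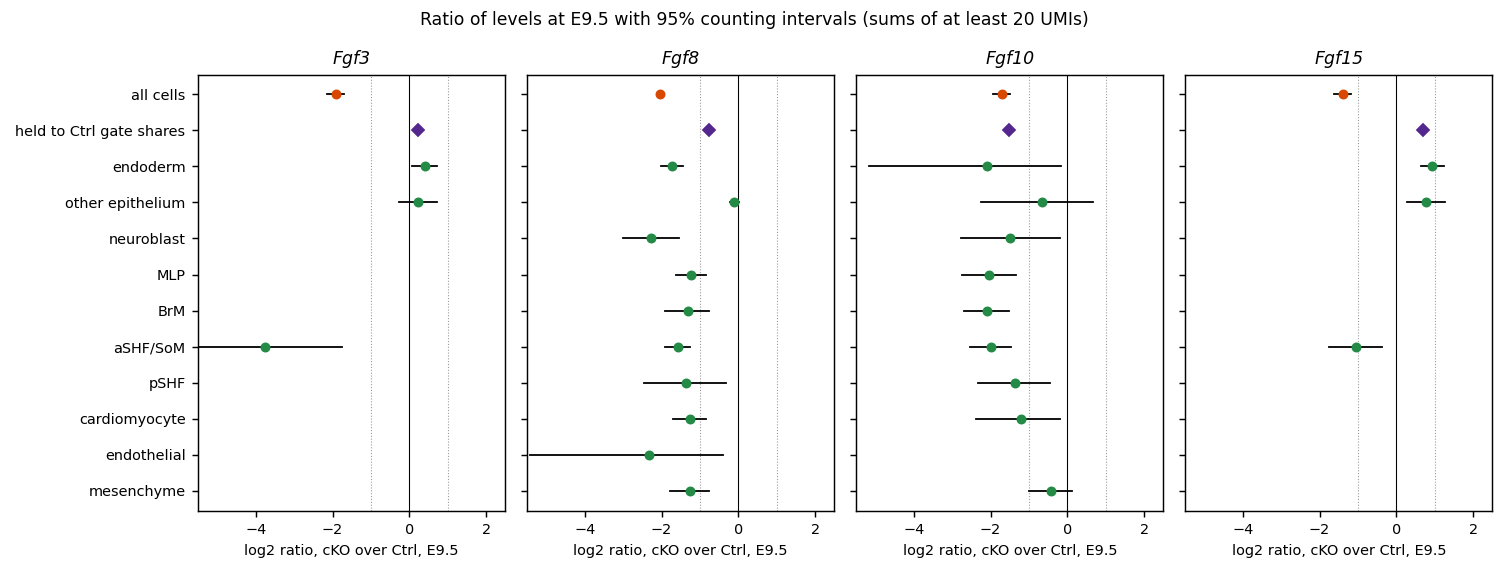
Log2 ratio of the level in cKO to that in Ctrl at E9.5 (x axis) for each ligand in all cells, with gate shares held to Ctrl (purple diamonds, no interval) and in each group with at least 20 UMIs over both sums (green points), with 95% counting intervals and dotted lines at 2-fold. Fgf10 lay left of -1 in BrM, aSHF/SoM and MLP, and Fgf3 and Fgf15 lay right of 0 in endoderm.

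Fgf3 and Fgf15 had most of their UMIs of Ctrl E9.5 in the epithelium. In the endoderm of Ctrl E9.5 Fgf3 was at 70.4 UPM (451 UMIs, 64.1 to 77.2), followed by neural tube at 26.2 (17.3 to 38.1), other epithelium at 17.9 (14.7 to 21.6), and otic, cardiomyocyte and neuroblast cells between 7.28 and 7.75. Fgf15 was at 59.96 UPM (384 UMIs, 54.1 to 66.3) in endoderm, at 17.5 in neural tube, 13.9 in other epithelium and 9.67 in aSHF/SoM, the last 3 with overlapping intervals. Both stood under 1 UPM in BrM, MLP and mesenchyme. The 24 cells set aside because they met 2 lineage gates held 28 Fgf3 UMIs, 92.9% of them in 5 cells. In Ctrl E9.5 the endoderm held 64.7% of the Fgf3 and 64.2% of the Fgf15 UMIs.

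Within the endoderm neither was lower in cKO. Fgf3 had 0 UMIs in Ctrl (7 cells) and was at 94.8 UPM in cKO (12 UMIs in 5 cells) at E8.5, and at 70.4 in Ctrl and 92.7 in cKO at E9.5, a ratio of 0.40 at E9.5 (0.07 to 0.71). Fgf15 was at 15.1 (2 UMIs), 86.9 (11 UMIs), 59.96 and 115 UPM in that order, a ratio of 0.94 (0.63 to 1.23). At E8.5 the gate with most UMIs of both in Ctrl was the neural tube, of 8 Ctrl and 12 cKO cells, with 9 and 2 UMIs of Fgf3 and 9 and 11 of Fgf15, too few cells for more than a count. At E9.5 the 5 cells with most UMIs of the gene held 54.5% of the Fgf3 and 55.2% of the Fgf15 UMIs of the cKO endoderm, against 11.3% and 21.4% in Ctrl. Leaving out 5 such cells in each library gave -0.38 for Fgf3 and 0.33 for Fgf15. That took a larger share of the 50 cKO than of the 324 Ctrl endoderm cells. Leaving out the tenth of cells with most UMIs of the gene in each library gave 0.33 and 1.50. The sign for Fgf3 thus turned with 5 cells left out of each library and not with equal shares left out. Over all epithelium Fgf3 was at 41.3 and 41.0 UPM (ratio -0.0084, -0.27 to 0.25) and Fgf15 at 34.3 and 49.5 (0.53, 0.28 to 0.78).

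Epithelial cells were also split by how many of the 6 endoderm gate markers had a UMI. The endoderm gate needs at least 2 of the same markers, so these values are a finer split and not independent of it. In Ctrl E9.5 Fgf3 was at 10.7 UPM in epithelial cells with 0 of 6 markers, 25.7 with 1, 87.8 with 2 and 33.2 with 3 or more, and in cKO E9.5 at 2.03, 72.1, 111 and 65.6. Fgf15 was at 8.55, 18.3, 78.6 and 19.7 UPM in Ctrl and 1.52, 85.1, 114 and 111 in cKO. Both genes were highest at 2 markers in Ctrl, and in cKO the values at 1, 2 and 3 or more lay within overlapping intervals for Fgf15. Fgf8 was at 274, 426, 359 and 253 UPM in Ctrl and 379, 248, 131 and 51.2 in cKO, in which it lay lower with each added marker. The cells behind these values were 273, 117, 221 and 106 in Ctrl and 107, 33, 31 and 20 in cKO.

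**Figure D4:**
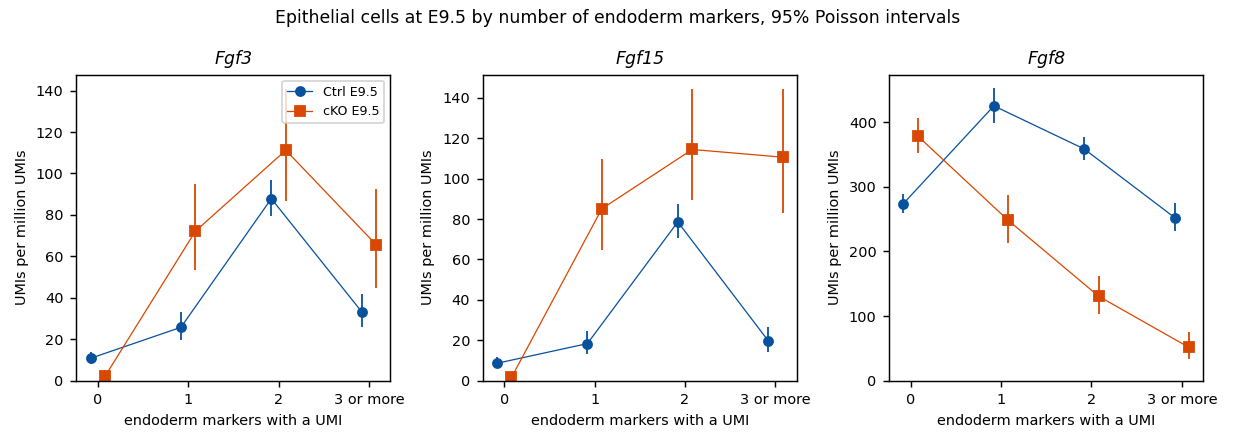
Level of Fgf3, Fgf15 and Fgf8 (y axis, UPM) in epithelial cells of the E9.5 libraries by the number of endoderm markers with a UMI (x axis), with 95% Poisson intervals. Fgf8 in cKO went from 379 UPM at 0 markers to 51.2 at 3 or more, while in Ctrl it was at 274 and 253.

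Shares of cells with a UMI were compared on 10000 randomly drawn UMIs per cell (thinning), which left out 135 Ctrl and 84 cKO cells at E8.5 and 555 Ctrl and 718 cKO cells at E9.5. At E9.5 Fgf8 was detected in 209 of 314 Ctrl endoderm cells (66.6%, 61.0 to 71.8) and 18 of 49 cKO ones (36.7%, 23.4 to 51.7), and in 68.8% and 67.7% of other epithelium. Fgf10 was detected in 82 of 402 BrM cells (20.4%, 16.6 to 24.7) and 12 of 251 (4.78%, 2.49 to 8.20), and in 21.3% and 5.45% of aSHF/SoM. Fgf10 in BrM at E8.5 was in 21.7% of 46 Ctrl and 11.5% of 26 cKO cells. Among endoderm cells at E9.5 Fgf3 was in 33.1% of the Ctrl and 32.7% of the cKO cells, and Fgf15 in 23.6% and 42.9%, with intervals of 19.0 to 28.7 and 28.8 to 57.8 for Fgf15. Before thinning the endoderm shares were 42.9% and 44.0% for Fgf3, 30.9% and 52.0% for Fgf15, and 70.1% and 48.0% for Fgf8.

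Endothelial cells stood in for cells that should lack these ligands. At E9.5 their median UMI count was 19983 in Ctrl and 16677 in cKO, beside 19107.5 and 18368 in endoderm. The share with a UMI was 6.03% for Fgf8, 0.822% for Fgf3, 0.548% for Fgf10 and 0 of 365 cells for Fgf15 in Ctrl, which at a limit of 3 cells allows a share of cells with a UMI of up to 0.822%. In cKO it was 3.41% for Fgf3 and 0 of 88 cells for the other 3, which allows up to 3.41%. The Fgf8 share in MLP cells, at 7.69% in Ctrl and 4.81% in cKO, did not separate from the endothelial share of Ctrl by its interval (5.04 to 11.1 in Ctrl).

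**Figure D5:**
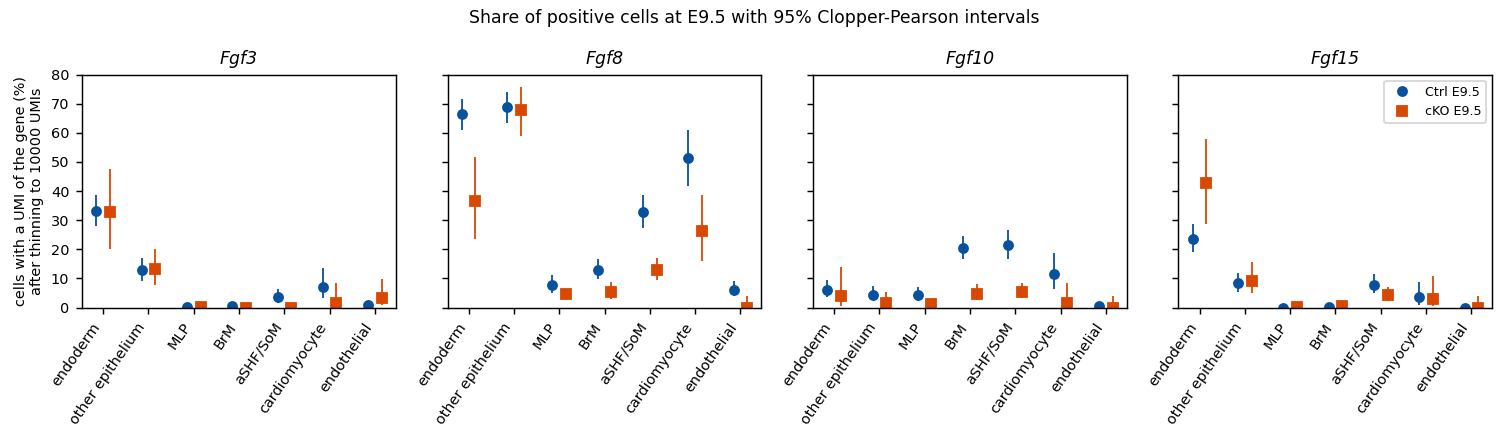
Share of cells with at least 1 UMI of each ligand (y axis, percent, after thinning to 10000 UMIs) in 7 groups at E9.5, with 95% Clopper-Pearson intervals. Fgf10 was in 20.4% of Ctrl and 4.78% of cKO BrM cells, and Fgf8 in 66.6% and 36.7% of endoderm cells.

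Cells with UMIs of more than 1 ligand were counted over all cells and in the endoderm, other epithelium and aSHF/SoM gates only. In the endoderm of Ctrl E9.5, 84 cells had a UMI of both, which was 60.4% of the 139 Fgf3 cells and 84.0% of the 100 Fgf15 cells, and in cKO E9.5 it was 19 cells, 86.4% and 73.1% of each. Over all endoderm cells Fgf3 was in 42.9% in Ctrl and 44.0% in cKO, and Fgf15 in 30.9% and 52.0%. Of the Fgf3 cells of Ctrl endoderm 82.7% also had Fgf8, beside 70.1% of all Ctrl endoderm cells. In aSHF/SoM of Ctrl E9.5, Fgf8 and Fgf10 shared 53 cells, 40.5% of the Fgf8 and 60.9% of the Fgf10 cells, and in cKO 9 cells, 15% and 28.1%. Over all aSHF/SoM cells Fgf8 was in 43.5% in Ctrl and 17.6% in cKO, and Fgf10 in 28.9% and 9.38%. Deeper cells have more of every gene, and these shares were not thinned.

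Between E8.5 and E9.5 in Ctrl, Fgf3 and Fgf15 were higher over all cells, by log2 ratios of 2.96 (2.37 to 3.61) and 2.24 (1.74 to 2.78), and 2 of the 4 members were thereby past 2-fold, against 17.9% of all genes higher. The median of all genes was 0.39. Fgf8 was at 0.23 (0.14 to 0.32), a direction that turned with the scaling (-0.15 relative to that median and -0.089 with TMM factors), and Fgf10 was at -0.79 (-0.99 to -0.59). In the mesoderm gates, Fgf8 was lower at E9.5, with log2 ratios of -2.48 in BrM, -1.70 in MLP, -0.80 in aSHF/SoM and -3.71 in mesenchyme. Over all epithelium it was higher, at 1.05 (0.62 to 1.51), on 44 UMIs in 17 cells at E8.5. Fgf10 was within 2-fold in BrM (-0.08, -0.72 to 0.63), aSHF/SoM (-0.35) and MLP (-0.80), and at -2.39 in mesenchyme. The stage medians of all genes were 0.29 in BrM, 0.26 in aSHF/SoM and 0.32 in MLP. Relative to these medians Fgf10 in MLP and Fgf8 in aSHF/SoM were past 2-fold lower. In cKO the same stage ratio over all cells was 0.60 for Fgf3, -1.27 for Fgf8, -1.88 for Fgf10 and 0.49 for Fgf15.

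Over 36 sums of a gate in a library of at least 50 cells, the genes most like each member were taken by Pearson's r of log2(UPM + 10) among 11783 genes, as a description over sums that share libraries and depth. Fgf15 was nearest to Fgf3 (r = 0.96), then Map7 (0.93), Syngr1 (0.92), Gm20467 (0.91) and Slc25a21 (0.91). The Fgf15 list was Fgf3, Fgf4, Gm20467, Id4 and Syngr1, the last 4 at 0.92. Fgf8 was nearest to Nkx2-6 (0.90), a homeobox gene of the pharynx, Ammecr1 (0.87), Etv5 (0.86), Slc2a3 (0.85) and Lama5 (0.83). Fgf10 was less closely matched, with Dusp14 (0.78), Ifi204 (0.77), Bend4 (0.74), Ppm1l (0.74) and Fam213a (0.73), and had r = 0.41 with Fgf8 and -0.11 with Fgf3.

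Of 17 other listed genes of the FGF family, among which Fgf1 was not included, 12 had enough UMIs over all cells at E9.5. Of these 6 were lower by 2-fold and none higher, with a median ratio of -1.17. Over all genes the median was -0.26, with 9.80% lower and 3.56% higher. Fgf11, Fgf16 and Fgf20 reached the minimum of 20 UMIs mainly through Ctrl, so the count is not one over all 17. Fgf9, a ligand of epithelia, was at 3.15 UPM in Ctrl and 0.602 in cKO (-2.39), Fgf4 at 1.85 and 0.526 (-1.81) and Fgf5 at 0.477 and 0.172 (-1.47). Fgf11, Fgf16 and Fgf20 were at -1.67 (20 and 7 UMIs), -3.09 (23 and 3) and -2.74 (18 and 3). Fgf4 lies between Fgf3 and Fgf15, and in the endoderm at E9.5 it was at 18.6 UPM in Ctrl and 35.8 in cKO, a ratio of 0.95 (0.38 to 1.48). Fgf9 in the endoderm was at 10.1 and 0.918 UPM (65 UMIs and 1 UMI, ratio -3.47, interval -8.79 to -0.94), and in BrM at 31 UMIs in Ctrl and 0 in cKO.

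Receptors, partners and targets were mostly within 2-fold over all cells at E9.5. All 5 receptors (Fgfr1, Fgfr2, Fgfr3, Fgfr4 and Fgfrl1) were within 2-fold, with a median of -0.27. Of 7 co-receptors and binding partners 5 had enough UMIs and 1 was lower, Fgfbp1, a carrier that frees FGFs from the matrix (-2.94). Of 13 feedback genes and targets 1 was lower, Spred3, an inhibitor of Ras signalling (-1.02), with a median of -0.16, and with 9.80% of all genes lower that share is near the background. Dusp6, a MAP kinase phosphatase, was at 66.8 UPM in Ctrl and 47.1 in cKO (-0.51), and Etv5 at 21.3 and 13.9 (-0.62). In BrM, where Fgf8 and Fgf10 were lower, Etv5 was at 39.1 and 18.9 UPM (-1.05) and Dusp6 at 192 and 140 (-0.46), and 11 of 12 feedback genes and targets were within 2-fold. In aSHF/SoM Dusp4, another such phosphatase, was at 13.3 and 5.64 UPM (-1.24), Fgf13 at 79 and 46 UMIs (ratio -1.02) and Fgfbp3, a binding partner, at 3.60 and 7.89 UPM (1.13). In endoderm none of 12 feedback genes and targets passed 2-fold, while Fgfr2 was at 9.84 and 22.0 UPM (1.16) and Fgfrl1, a receptor without a kinase domain, at 12.5 and 3.67 (-1.77). Beside the receptors, Flrt3, an FGF receptor partner, was at 18.9 and 7.34 UPM (-1.36) there, and Flrt1 at 3.75 and 8.26 (24 and 9 UMIs, ratio 1.14, interval -0.15 to 2.30), where 2.38% of all genes were higher by 2-fold. At E8.5 over all cells, Fgfr3 was the only gene of these lists past 2-fold among those with enough UMIs, at 0.594 and 1.79 UPM (1.59). Of all genes 2.92% were higher by 2-fold there.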

How the data were processed

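Single-cell RNA-seq was deposited for 4 libraries, and the deposited values are UMI counts, raw whole numbers for each gene in each barcode, with no cell annotation. Cell Ranger 3.1.0 and the builds mm10 and GRCm38 are named in the submitters' processing notes. Counts were summed per library and gate over the 27514 shared genes and given per 1000000 UMIs (UPM) with Python 3.11.15, numpy 2.4.6 and scipy 1.17.1. Figures used matplotlib 3.10.9. TMM factors came from edgeR 4.0.16 in R 4.3.3, with no test. Every barcode was kept; no doublet caller was run, and cells that met 2 lineage gates were set aside as mixed. A gate marker counted as present at 1 UMI, and a cardiomyocyte marker at 2.

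The members, gene lists and gates were chosen with earlier results of these data known, the gates partly with the study's cluster markers in view. The named genes were the 4 members, Tbx1, the FGF pathway lists by their counts with values for genes past 2-fold or that a result turned on, and the 5 genes most like each member; Dusp6, the all-cells value of Etv5, and Dusp4, Fgf13, Fgfbp3, Fgfr2, Fgfrl1, Flrt1 and Flrt3 in single gates, and Krt8, Krt18 and Cldn4, were named after their values were seen. Alternatives were thinning to 10000 UMIs, leaving out cells under 5000 UMIs or over 10% mitochondrial UMIs, and all genes as the denominator. Further ones were TMM, centring, stricter and reversed gates, and the Ctrl composition. Another left out the 5 cells with most UMIs of the gene in question, so the cells left out differ between genes. For shares of positive cells the alternatives were a minimum of 2 UMIs or no thinning.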

Additional observations from a re-analysis of the deposited data

Results flagged for a closer look

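The cKO to Ctrl log2 ratio had opposite signs at the 2 stages for 4 pairs of values, and the difference between stages was not tested, since each group is 1 library. Fgf3 over all cells was at 0.43 at E8.5 (33 and 24 UMIs) and -1.92 at E9.5. Fgf15 over all cells was at 0.34 at E8.5 (44 and 34 UMIs) and -1.40 at E9.5. Fgf8 in other epithelium was at 1.97 at E8.5, on 51 UMIs in 8 cKO cells and 10 UMIs in 10 Ctrl cells, and at -0.10 at E9.5 (-0.22 to 0.01). Fgf10 in cardiomyocytes was at 0.87 at E8.5 (19 and 8 UMIs) and -1.22 at E9.5 (10 and 38 UMIs). The E8.5 intervals of Fgf3, Fgf15 and Fgf10 include 0, as does the E9.5 interval of Fgf8.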

How the results depend on the processing

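Of 179 alternatives to 31 values, 125 stayed within the counting interval of the value, 52 moved out of it and 2 turned the direction of a called value, Fgf3 (0.22) and Fgf15 (0.69) over all cells at E9.5 with the Ctrl composition, which holds the gate shares fixed by construction. Except where said, the cause was not tested. The same composition gave Fgf8 -0.77 at E9.5 and -0.68 at E8.5.

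TMM gave, for cKO over Ctrl in all cells at E9.5, -1.66 for Fgf3, -1.77 for Fgf8, -1.45 for Fgf10 and -1.14 for Fgf15, and 0.042 for Fgf8 in other epithelium. Its stage ratios in Ctrl were -0.089 for Fgf8 and -1.11 for Fgf10. Centring on the median gene gave -1.67, -1.77, -1.45 and -1.15 in all cells, 0.10 for Fgf8 in other epithelium, and stage ratios of -0.15 for Fgf8 and -1.18 for Fgf10. The direction of the Fgf8 stage ratio and of Fgf8 in other epithelium therefore flips with the scaling.

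Without the 5 cells with most UMIs of the gene in question in each library, all cells at E9.5 gave -2.27 for Fgf3, -2.14 for Fgf8 and -1.68 for Fgf15. Endoderm gave -0.38 for Fgf3, 0.33 for Fgf15 and -2.52 for Fgf8. There 5 cells are a larger share of the 50 in cKO than of the 324 in Ctrl. The stage ratio of Fgf3 without 5 such cells was 3.73. Thinned cells gave 0.43 for Fgf15 in endoderm and 0.14 for the stage ratio of Fgf8. Stricter gate markers gave -1.38 for Fgf8 in endoderm and -0.71 for Fgf8 in MLP at E8.5, and reversed mesoderm gates gave -0.31 for the latter.

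Some alternatives were chosen after seeing the data. At 3 endoderm markers Fgf3 was at 1.04, Fgf15 at 2.54 and Fgf8 at -2.25. All epithelium as 1 gate gave Fgf3 -0.0084, Fgf15 0.53 and Fgf8 -0.25 in place of both of its epithelial values. Without the tenth of cells with most UMIs of the gene in question, Fgf15 in endoderm was at 1.50 and Fgf8 at -2.11.

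Requiring 2 UMIs lowered the positive shares in the leading gates of Ctrl and cKO at E9.5 to 16.6% and 16.3% for Fgf3, 57.0% and 51.5% for Fgf8, 4.23% and 0% for Fgf10 (BrM) and 13.1% and 20.4% for Fgf15, and for Fgf10 in BrM at E8.5 to 6.52% and 0%. Without thinning they were 42.9% for Fgf3, 30.9% for Fgf15 and 33.1% for Fgf10 in Ctrl E9.5, 10.6% for Fgf10 in cKO E9.5 and 30.8% in BrM of cKO E8.5.

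No value was obtained for Fgf3 and Fgf15 in the neural tube at E8.5 where too few UMIs were left. Each group is 1 library, so no library was left out. No paired analysis was possible because the labels carry no replicate numbers.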
